A study of Mus musculus with 4 samples.

Results

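MicroRNAs (miRNAs) are short RNAs that are cut from hairpins in longer primary transcripts. Drosha and Dgcr8 release the hairpin in the nucleus, Xpo5 carries it to the cytoplasm, Dicer1 cuts it to a duplex, and an Argonaute protein keeps 1 strand, whose bases 2 to 8, the seed, pair with target mRNAs. Many miRNA hairpins lie in introns of other genes and are made from the same primary transcript as their host. In the brain, miR-124 is known from neurons, miR-219 and miR-338 from oligodendrocytes, and miR-21, miR-29, miR-125b and miR-181 from astrocytes among other cells. The libraries here were made from total RNA after removal of ribosomal RNA, with no enrichment of short RNAs named in the labels. In such libraries reads over a miRNA gene mostly reflect primary transcripts, so the values below are not levels of mature miRNAs.

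Of the 570 rows with the biotype miRNA among 24169 genes, 268 had an FPKM (fragments per kilobase of gene, scaled to the depth of the library) of at least 1 in at least 2 of 4 libraries, and these are the rows described. They were thus selected on their FPKM, so their levels are a description. The libraries came from C8-D1A, an established, cloned mouse line labelled as astrocytes: 2 were from untreated cells and 2 from cells exposed to 1 mM MBP for 24 h. The labels do not spell out MBP. The series title concerns DBP, dibutyl phthalate, and monobutyl phthalate is the known main breakdown product of that plasticizer. Nothing in the labels states that libraries of 1 group are separate cultures, so the tests measure the spread between these libraries, which may be technical.

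The rule used the level in all 4 libraries without regard to group. Of the 268 rows, 140 reached the minimum in 4 libraries, 59 in 3 and 69 in 2, of which 12 passed through the controls alone and 12 through the MBP libraries alone. Just inside the minimum lay Mir298, Mir6379, Mir3089 and Mir1905, whose second-highest FPKM was 1.00 to 1.02, and just outside lay Mir1904, Gm22071, Gm27833 and Mir497, at 0.965 to 0.994. Another 302 miRNA rows were under the rule, 44 of them listed at 0 in every library. By name, 188 members were called Mir or Mirlet7, 78 carried a Gm number, and 2 bore names of other RNA classes, Snord43 and n-TSaga9. The rows were 53 to 171 bases long, with a median of 86.

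RefSeq (GRCm38.p6) held a mature sequence for 171 of the 268 members, 286 mature miRNAs with 258 different seeds. Shown here are the mature miRNAs of the 8 highest rows, then those of some seed families and clusters that hold several members. All are written 5′ to 3′, with the seed in capitals. The 8 rows with the highest FPKM give these, and no 2 of them share a seed:
mmu-miR-763: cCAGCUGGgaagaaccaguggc
mmu-miR-7669-5p: aGUACCACcauacacagcuuuug
mmu-miR-5125: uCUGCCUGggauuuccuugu
mmu-miR-7a-5p: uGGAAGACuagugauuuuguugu
mmu-miR-1931: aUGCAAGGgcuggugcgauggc
mmu-miR-29a-3p: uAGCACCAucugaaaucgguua
mmu-miR-222-3p: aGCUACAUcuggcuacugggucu
mmu-miR-31-5p: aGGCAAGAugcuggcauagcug

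Seeds shared by at least 2 members numbered 20, and 5 were shared by at least 3. These counts rest on the matched arms only, which for Mirlet7a-2 and Mir301b are the 3p and the 5p arm. The largest group, GAGGUAG with 5 matched rows, was that of the let-7 family (Mir98, Mirlet7b, Mirlet7c-1, Mirlet7c-2 and Mirlet7e), known as a brake on proliferation and on Lin28 and Hmga2. The rows Mirlet7c-1 and Mirlet7c-2 lie on different chromosomes and give 1 mature sequence:
mmu-miR-98-5p: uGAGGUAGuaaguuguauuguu
mmu-let-7b-5p: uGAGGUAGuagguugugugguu
mmu-let-7c-5p: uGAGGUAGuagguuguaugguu
mmu-let-7e-5p: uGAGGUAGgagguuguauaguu
Mir221 shares the seed of Mir222 (above):
mmu-miR-221-3p: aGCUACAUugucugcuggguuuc
The seed AGUGCAA was held by 4 matched rows, Mir130a, Mir130b, Mir301 and Mir721:
mmu-miR-130a-3p: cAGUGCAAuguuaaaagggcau
mmu-miR-130b-3p: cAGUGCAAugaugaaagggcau
mmu-miR-301a-3p: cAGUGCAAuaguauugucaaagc
mmu-miR-721: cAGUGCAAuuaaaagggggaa
The seed ACCCGUA was held by 3 rows, Mir100, Mir99a and Mir99b, a family known for targeting Mtor:
mmu-miR-100-5p: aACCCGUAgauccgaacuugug
mmu-miR-99a-5p: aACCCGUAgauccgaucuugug
mmu-miR-99b-5p: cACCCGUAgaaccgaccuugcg
Mir196a-1 and Mir196a-2, in different Hox clusters, give the same mature miRNA:
mmu-miR-196a-5p: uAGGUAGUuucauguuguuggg
The 4 rows in introns of Clcn5 hold different seeds:
mmu-miR-501-5p: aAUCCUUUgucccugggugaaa
mmu-miR-362-5p: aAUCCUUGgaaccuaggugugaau
mmu-miR-188-5p: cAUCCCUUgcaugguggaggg
mmu-miR-532-3p: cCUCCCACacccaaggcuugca

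Most of the miRNA rows lay inside other genes. Against the other rows of the table, 203 members (75.7%) lay inside another gene on the same strand, 20 (7.46%) inside one on the opposite strand, and 45 (16.8%) outside any. Over all 570 miRNA rows these numbers were 361, 64 and 145. Of the 203, 199 lay in an intron and 4 at an exon edge, Mir1907 in Trps1, Mir7090 in Ctnnb1, Mir343 in Ercc2 and Mir5134 in Ccnf. The 203 had 192 different hosts, and 195 of them sat in protein-coding hosts.

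GENCODE mouse release 21 lists 2202 miRNA genes, and the share with a row in the table differed with where they lie. A row was present for 353 of 807 miRNA genes in an intron on the same strand (43.7%) but for 6 of 270 wholly within an exon on the same strand (2.22%). The 6 were Mir31, Mirlet7b, Mirlet7c-2, Mirlet7a-1, Mirlet7f-1 and Gm27734, of which the first 3 were members. Genes at a same-strand exon edge had rows in 28 of 127 cases (22.0%), genes inside an exon on the opposite strand in 32 of 80 (40.0%), genes in an opposite-strand intron in 28 of 225 (12.4%), and genes outside any other in 111 of 672 (16.5%). GENCODE names some hosts that have no row of their own here, such as the long RNAs over Mir31 and Mirlet7b, so both rows count as outside in the table's own positions.

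**Figure D1:**
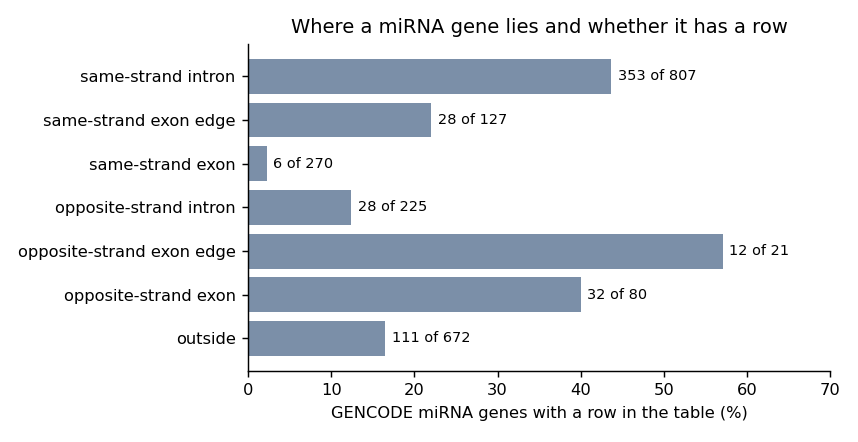
Share of GENCODE miRNA genes that have a row in the table (%, bars from 0), by where each lies relative to other genes, with the counts beside each bar. Same-strand exons stand lowest at 6 of 270, and same-strand introns hold the most rows, 353 of 807.

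Several miRNAs best known in glia fall in that thinly covered class. Of 34 listed glial and brain miRNA genes, 15 had a row and 9 were members, and 14 of the 34 lie in a same-strand exon, 1 of them with a row. Mir21a, Mir22, Mir155, Mir125b-1, Mir181b-1, Mir9-2, Mir124a-1 and the Mir17 to Mir92-1 cluster are in that class and were not analysed here. Mir124a-2, Mir124a-3, Mir125b-2, Mir181a-1, Mir9-3 and Mir219a-2 were not analysed here either. The other rows under the rule were nearly empty: Mir29b-1 had 1, 0, 2 and 0 reads, Mir146 had 0, 0, 1 and 0, Mir143 had 5, 0, 0 and 0, Mir181b-2 had 4, 0, 2 and 0, and Mir181a-2 had 0 throughout, always in the order control 1, control 2, MBP 1, MBP 2. Mirlet7a-1 had 2, 5, 1 and 2 reads.

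The depth behind these rows was small because they are short. Multiplied by row length, the deposited FPKM gave whole reads in every miRNA row, and an FPKM of 1 in a row of 80 bases came to 1.89 to 2.07 reads, at 23571000 to 25907000 reads per library. The median member had a mean of 5.12 reads per library (quartiles 2.75 and 11.1), 79 members had at least 10, 34 at least 20, 8 at least 50 and 3 at least 100. A count of 5 has an exact Poisson 95% interval of 1.62 to 11.7 and a count of 60 one of 45.8 to 77.2, and these cover counting error only. Per 1000000 reads of a library, member reads summed to 150, 135, 156 and 159 in control 1, control 2, MBP 1 and MBP 2. Mir763 alone held 25% of member reads and the top 10 rows 45.8%, and without Mir763 the sums were 110, 107, 116 and 118.

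The 8 rows with the highest mean FPKM were also the 8 with the most reads. Mir763, in an intron of Hmga2 (GRCm38 chr10:120447991-120448110, minus strand), stood at 336, 233, 341 and 340 FPKM, or 982, 660, 979 and 1058 reads. Control 2 was low and the other 3 libraries lay close together. Hmga2, which encodes a chromatin protein of embryonic and transformed cells, stood at 75.7, 69.9, 84.3 and 82.3 FPKM, so the row of Mir763 was 4.0 times as high as its host's over the 4 libraries.

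Mir7669 (chr3:90011153-90011210), in an intron of the stress granule protein gene Ubap2l, had 118, 124, 172 and 142 FPKM and was 4.07 times as high as its host. Mir5125 (chr17:23823291-23823369), in an intron of Srrm2, a scaffold of nuclear speckles, had 73.3, 53.2, 59.7 and 57.2 FPKM, 0.548 times its host. Mir7-1 (chr13:58392779-58392886) lies in an intron of Hnrnpk, an RNA-binding protein gene, and had 36.1, 30.3, 28.6 and 34.3 FPKM, 0.254 times its host. Mir1931 (chr10:93162785-93162903), in an intron of the kinase gene Cdk17, had 37.6, 25, 30.9 and 35.7 FPKM, 1.81 times its host. Of these 5 rows, Mir763 and Mir7669 had both MBP libraries above both controls, beside 21.3% of all genes tested, and the groups of the other 3 overlapped.

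The other 3 of the 8 lay outside any gene of the table. Mir29a (chr6:31062660-31062747), whose miRNA is known to target collagen mRNAs, had 30.3, 26.0, 36.1 and 35.1 FPKM, from 65, 54, 76 and 80 reads. Mir222 (chrX:19146893-19146971), known for targeting the cell cycle inhibitor Cdkn1b, had 24.4, 21.5, 38.6 and 35.2 FPKM. Mir31 (chr4:88910557-88910662) had 20.5, 20.8, 26.4 and 21.8 FPKM. In each of the 3, both MBP libraries lay above both controls, as in 21.3% of all genes tested. Mir29b-1, 275 bases from Mir29a on the same strand, had 3 reads in all 4 libraries together.

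**Figure D2:**
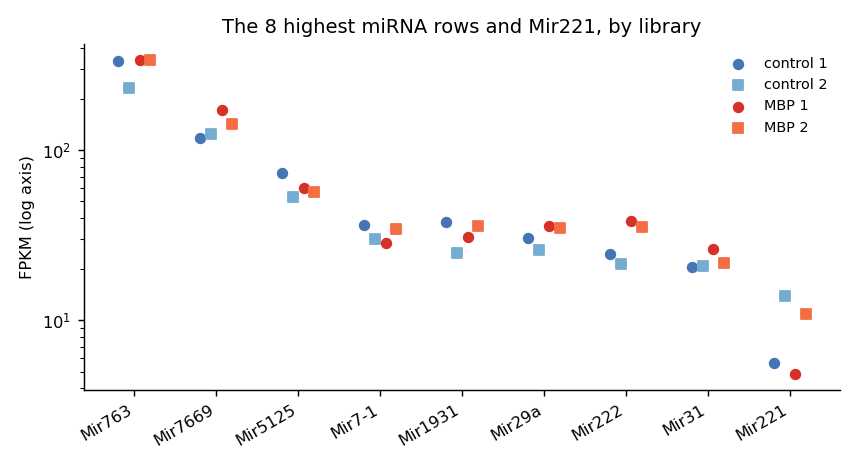
FPKM (log axis) of the 8 highest miRNA rows and of Mir221 in each library, with controls in blue and MBP libraries in red. Mir763 and Mir7669 stand above 100 in every library, Mir222 is higher in both MBP libraries, and Mir221 splits each group.

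Across the 199 intronic members, the row stood at a median of 0.285 times its host's FPKM (quartiles 0.131 and 0.657), and 25 stood above it. Hosts and rows were only loosely related in level: Spearman's rho was 0.318 and Pearson's r of the log2 levels was 0.379 over the 199, as a description across genes that share the 4 libraries and are not replicates. The minimum on the row raises these ratios for weakly expressed hosts. Over all 312 intronic miRNA rows whose host had at least 1 FPKM, members or not, the median ratio was 0.137, beside 0.110 for 177 intronic snoRNA rows of the same kind. Hosts of intronic members had a median of 10.5 FPKM, and hosts of intronic miRNA rows under the rule 6.36.

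At the low end, Mir7081 in Dnmt1, Mir6911 in Dazap1, Mir6896 in Dst and Mir5622 in Tpx2 stood at 0.01 to 0.02 times their hosts, with 1.25 to 3.00 reads on average. At the high end, Gm22953 in Serinc4 stood at 4.16 FPKM beside a host at 0.04, and Mir8116 in Ache at 3.56 beside 0.11. Mir99a and Mirlet7c-1, both in introns of the long RNA Mir99ahg, had 2.96 and 0.97 FPKM beside a host at 0.23. Reads there are few: these 4 rows averaged 10.3, 8.50, 4.75 and 2.25 reads. In 2610203C20Rik, the long RNA that carries the Mir100, Mirlet7a-2 and Mir125b-1 cluster, Mir100 stood at 12.3, 7.42, 11.0 and 12.1 FPKM and Mirlet7a-2 at 2.99, 0.88, 1.74 and 0.80, beside a host at 30.7, 24.9, 37.1 and 34.2.

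**Figure D3:**
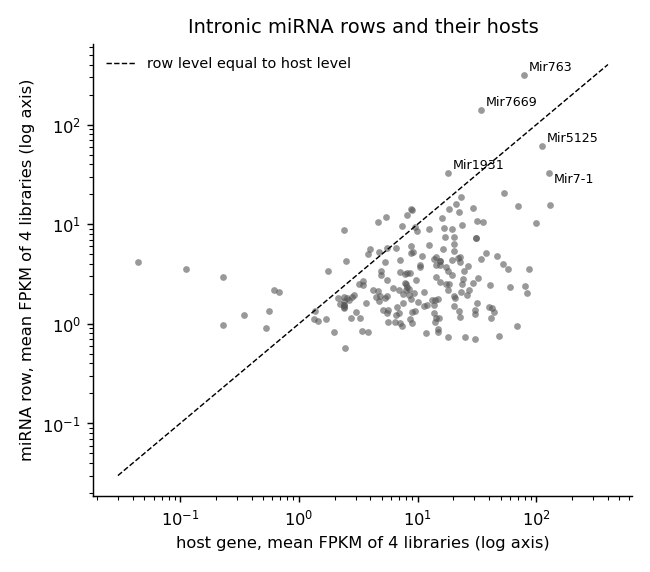
Mean FPKM over 4 libraries of the 199 intronic miRNA rows (y, log axis) against that of the host gene (x, log axis), 1 point per row, with a dashed line where both are equal. Most rows lie under the line and 25 lie above it, among them Mir763, Mir7669 and Mir1931.

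Mir196a-1, Mir10a and Mir196a-2 lie in Hox clusters, whose genes set position along the body axis. Mir196a-1, 6191 bases from Hoxb9, had 12.1, 13.3, 10.2 and 12.9 FPKM (30, 32, 25 and 34 reads), and Hoxb9 itself had 44.1, 46.6, 43.2 and 40.4. Mir10a, 992 bases from Hoxb4, had 7.09, 9.64, 9.87 and 12.3 FPKM, with Hoxb4 at 8.98, 7.49, 8.18 and 7.43. Mir196a-2, 1456 bases from Hoxc10 and in an intron of Hoxc5, had 1.93, 2.99, 2.46 and 2.72 FPKM, or 4 to 6 reads, beside 3.36 to 4.52 for Hoxc10. The groups overlapped in Mir196a-1 and Mir196a-2, and Mir10a was higher in both MBP libraries.

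The comparison of MBP with untreated cells asks whether these primary transcripts moved with the exposure. None of the 268 members passed the test over all 12403 genes tested (limma on log2(FPKM + 1), adjusted p under 0.05, background 0.0% of genes called), and the lowest adjusted p among them was 0.392. Their median log2 fold change was 0.03, beside -0.005 over all genes. At an unadjusted p under 0.05 there were 64 members (23.9%), 42 higher and 22 lower, beside a background of 9.68% (3.81% higher and 5.87% lower). The share differed with the model of the spread: when the expected spread followed the number of reads and not the FPKM, 17 members (6.34%) had an unadjusted p under 0.05 against 11.8% of all genes, and limma-voom on the recovered reads gave 6 of 79 (7.59%) against 11.4%. At the adjusted threshold these fits called no member, beside a background of 0.0242% and 0.11% of genes. With 2 libraries against 2, an exact permutation test of a single row cannot go below 0.33.

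Groups that did not overlap are a second reading of the same values. They were found in 90 members (33.6%), 54 with both MBP libraries above both controls and 36 below, beside a background of 44.8% (21.3% above and 23.5% below). The rule itself fixed this in the 24 members that passed through 1 group only, 12 on each side, and 23 of those 24 were also among the 64 at an unadjusted p under 0.05. In the other 244 members, 42 lay above and 24 below (27.0% in all), and 41 (16.8%) had an unadjusted p under 0.05. Among the 79 members with at least 10 reads, 17 lay above and 6 below, and the median log2 fold change was 0.10. The squared difference between the 2 controls was, on average, 1.75 times what counting alone gives, that between the MBP libraries 1.48 times and that between the groups 1.51 times. In the hosts the same ratios were 29.3, 7.78 and 28.2. The members' ratios include the 24 that passed through 1 group only, whose difference between groups was fixed by the rule. These 24 were not set apart here, so the members' ratios are a description. In the 79 members with at least 10 reads the ratios were 2.40 between controls, 1.69 between MBP libraries and 1.95 between groups.

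**Figure D4:**
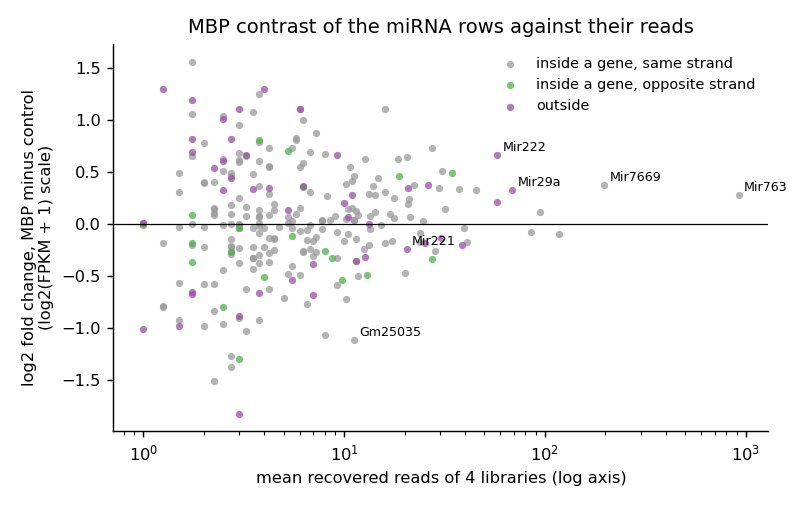
Log2 fold change of each member, MBP minus control on the log2(FPKM + 1) scale (y), against its mean recovered reads (x, log axis), coloured by position. The points narrow toward 0 as reads increase, and none passed the adjusted test.

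Split by position, members inside a gene on the same strand had a median log2 fold change of 0.03 (36 above and 26 below among 203), those outside any gene 0.28 (14 above and 7 below among 45) and those on the opposite strand -0.22 (4 above and 3 below among 20), beside 21.3% above and 23.5% below over all genes. These counts and medians include the members that passed the rule through 1 group only, such as Mir190a and Mir298. Their separation was fixed by the rule, and they were not counted apart by position. The difference between these classes was not tested. Per 1000000 reads, the 45 outside rows summed to 18.1, 21.3, 21.8 and 23.4, with MBP 1 close to control 2. Fold changes also went with base composition: Spearman's rho between fold change and GC content was -0.187 over the members and -0.442 over 12389 genes, as descriptions, and the part of GC content in the values of single rows was not tested.

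Mir222 had the lowest p among the 79 members with at least 10 reads. Its reads were 47, 40, 73 and 72. Its mean FPKM was 23 ± 2.09 without and 36.9 ± 2.40 with MBP (SD, 2 libraries in each group), which is a log2 fold change of 0.66 (limma 95% interval 0.44 to 0.88, adjusted p = 0.392). Adjusted p ranged from 0.160 to 0.638 over the other settings. Mir221, 504 bases away on the same strand with the same seed, went a different way in these libraries: its reads were 13, 31, 11 and 27, a log2 fold change of -0.25 (limma 95% interval -1.51 to 1.02), which turned to 0.34 without control 2 and to 0.27 without MBP 1. Summed, the rows had 60, 71, 84 and 99 reads. Gm14636, a long RNA gene 10009 bases away on the same strand, had 17.8, 18.0, 21.9 and 21.1 FPKM (log2 fold change 0.25, limma adjusted p = 0.46).

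The cluster in introns of Clcn5, which encodes an endosomal chloride transporter, was the only one with more than 2 members. Mir501 had 15, 7, 12 and 12 reads, Mir362 had 4, 3, 11 and 7, Mir188 had 11, 4, 9 and 4, and Mir532 had 6, 3, 7 and 9. Mir362 and Mir532 had both MBP libraries above both controls, as in 21.3% of all genes tested, and the groups overlapped in Mir501 and Mir188. The log2 fold changes of Mir362 and Mir532 were 1.00 and 0.59 (limma adjusted p = 0.486 and 0.512). With a library left out, Mir532 ran from 0.28 to 0.89. Its closest libraries were control 1 with 6 reads and MBP 1 with 7. The 4 rows summed to 36, 17, 39 and 32 reads, with control 2 lowest, and Clcn5 had 14.5, 14.7, 16.1 and 16.3 FPKM. Members within 10 kb of each other on a strand formed 14 clusters of 30 members, and in 11 of the 14 the members' fold changes had both signs. The rule fixed some of these signs, as in Mir130b and Mir298, which passed it through the controls alone. Others came from fold changes near 0, as in Mirlet7c-2 (-0.005) and Mir99a (-0.03). The count was not set against that of unrelated rows.

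**Figure D5:**
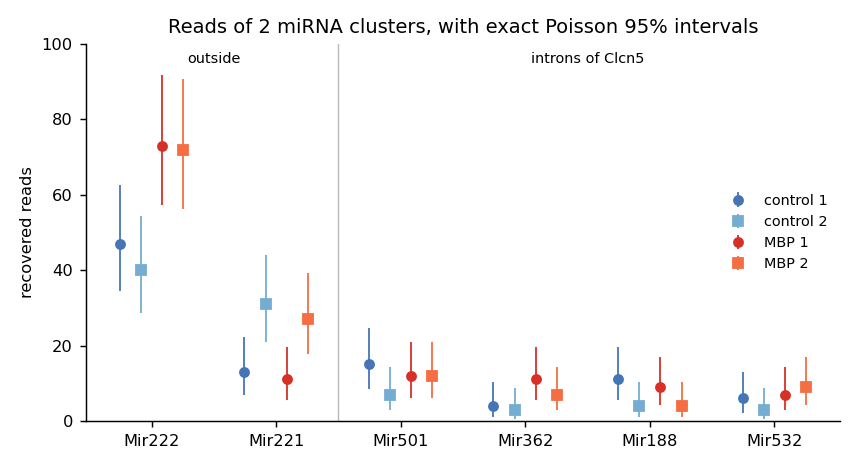
Recovered reads (y) of Mir222 and Mir221, outside any gene, and of the 4 rows in introns of Clcn5, in each library, with exact Poisson 95% intervals that cover counting error only. Mir222 is higher in both MBP libraries, and Mir221 pairs a low and a high library in each group.

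Sums by seed family follow. The 5 rows with the seed GAGGUAG summed to 36, 49, 73 and 39 reads, and Mirlet7a-2, another let-7 row, had 7, 2, 4 and 2. MBP 1 was high there, with 31 reads of Mirlet7b and 25 of Mirlet7c-2, where the other libraries had 13 to 22 and 5 to 12. The 4 rows with the seed AGUGCAA summed to 28, 29, 27 and 23, beside 8, 6, 4 and 13 for Mir301b, the 3 rows with ACCCGUA to 39, 25, 29 and 38, and the 2 Mir196a rows to 34, 38, 30 and 40. The groups overlapped in the sums of GAGGUAG rows, of ACCCGUA rows and of Mir196a rows. No direction is read from the sum of AGUGCAA rows, because the rule fixed part of it. Mir130a and Mir130b, in that sum, had passed the rule through the controls alone, so that their lower values in MBP were fixed by it.

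The members with the lowest unadjusted p on the higher side were mostly rows of few reads. Mir344f had 0, 0, 2 and 3 reads and Mir190a, in Tln2, 0, 0, 2 and 5. Both passed the rule through the MBP libraries alone, so that their higher values there were fixed by it, and no fold is given. Mir582, in the phosphodiesterase gene Pde4d, had 1, 2, 5 and 6 reads, Mir28a, in the gene of the focal adhesion protein Lpp, had 4, 2, 8 and 10, and Gm24194, in Pja2, had 4, 3, 8 and 7. Their log2 fold changes were 1.08, 1.11 and 0.73, each with a limma adjusted p of 0.457, and their hosts' were 0.05, 0.11 and 0.05. None of these passed the test.

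On the lower side, Gm25035, in the zinc finger gene Zfp142, had the most reads, with 13 and 19 in controls and 7 and 6 in MBP. Its mean FPKM was 8.70 ± 2.50 without and 3.4 ± 0.557 with MBP (SD, 2 libraries in each group), which is a log2 fold change of -1.12 (limma 95% interval -1.62 to -0.62, adjusted p = 0.457), beside 0.03 for Zfp142. Mir130a had 4, 7, 0 and 1 reads and Mir298 had 2, 2, 0 and 0. Mir5128, in Strbp, had 5, 6, 2 and 2, Mir1953 had 5, 5, 2 and 3, and Gm25238 had 5, 5, 3 and 3. Mir130a, Mir298 and Mir5128 had passed the rule through the controls alone, so that their lower values in MBP were fixed by it. None of the 6 passed the test.

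Among the remaining glial and brain members, Mir145a had 2, 1, 4 and 4 reads and Mir9-1, which passed the rule through the MBP libraries alone, had 0, 2, 4 and 4, and Mir338, in an intron of Aatk, had 2, 3, 1 and 5. Mir99a had 8, 2, 3 and 6. Mir128-1, a miRNA of neurons in an intron of R3hdm1, had 1, 2, 5 and 2. Each of these rests on 0 to 8 reads per library, and none passed the test.

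Hosts and rows could also be set against each other. Of the 192 hosts, 184 passed the filter, none passed the test (limma, 12 of them at an unadjusted p under 0.05, 6.52% beside 9.68% of all genes), and their median log2 fold change was 0.03, with a range of -0.28 to 0.35. The ratio of row to host was tested in 194 member pairs among 478 pairs of a short RNA row and its host. None passed (lowest limma adjusted p = 0.741, background 0.0%), 14 (7.22%) had an unadjusted p under 0.05 beside 5.86% of all pairs, and in 64 (33.0%) the groups did not overlap beside 33.3%. The member pairs include rows that passed the rule through 1 group only, such as Mir190a and Mir5128. The direction of their row level was fixed by the rule, and they were not counted apart here. The ratio of Mir763 to Hmga2 differed by 0.09 on the log2 scale (95% interval -0.61 to 0.78), that of Mir7669 to Ubap2l by 0.26 (-0.42 to 0.94) and that of Mir582 to Pde4d by 1.03 (0.20 to 1.85, limma adjusted p = 0.741).

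The genes that make and use miRNAs gave tighter values, and none passed the test. Of 40 listed, 39 were in the table and 37 were tested, with a median log2 fold change of 0.03. Drosha had 19.4, 19.2, 20.3 and 20.5 FPKM, Dgcr8 11.5, 11.7, 11.3 and 11.9, Xpo5 51.1, 47.2, 48.8 and 48.8, and Dicer1 10.6, 9.90, 10.8 and 10.7. Their log2 fold changes, 0.07, -0.00, -0.01 and 0.06, had limma 95% intervals that reached at most 0.22 from 0. Among the Argonautes, Ago2, the one that can cut its target, was highest at 32.9, 32.5, 35.1 and 34.7 FPKM, Ago1 had 12.3, 11.7, 12.2 and 12.1, Ago3 had 5.81, 5.37, 6.41 and 6.39, and Ago4, at 0.34 to 0.47, was under the filter.

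Of the 37 tested, 1 (2.7%) had an unadjusted limma p under 0.05, beside 9.68% of all genes. It was Prkra, a double-stranded RNA-binding partner of Dicer1. Its mean FPKM was 8.83 ± 0.290 without and 7.67 ± 0.078 with MBP (SD, 2 libraries in each group). That is a log2 fold change of -0.18 (limma adjusted p = 0.503). Next by p came Ago3, at a log2 fold change of 0.17, Mov10, a helicase of the silencing complex, at -0.16, Snd1, a nuclease linked to that complex, at -0.12, and Hnrnpa2b1, a reader of primary miRNAs, at 0.28. With a library left out, Hnrnpa2b1 ran from 0.12 to 0.43 and Dicer1 from 0.01 to 0.11. Groups did not overlap in 16 of the 37 (43.2%), close to the background of 44.8%. Lin28b, the let-7 inhibitor, was under the filter at 0.54 to 0.68 FPKM, and Lin28a was not analysed here.

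The line's identity and the libraries bear on all of these rows. Of 12 astrocyte markers 4 reached 1 FPKM (Vim, Cd44, S100b and Sox9). The markers summed to 623 in both controls and 590 to 602 in MBP, nearly all Vim and Cd44. S100b stood at 4.75 to 5.69 and Sox9 at 2.22 to 2.50. Gfap stood at 0.12 to 0.28, Aqp4, Slc1a2, Aldh1l1 and Gja1 under 0.21, and Slc1a3 at 0 in 3 libraries. Of the oligodendrocyte lineage markers, Sox10 stood at 96.1 FPKM or more in controls and at 87.8 to 89.6 in MBP, Olig1 and Olig2 at 1.23 to 2.62, and Mbp, Pdgfra and Cspg4 near 0. Neuron markers summed to 32.6 to 35.4 and 25.6 to 26.0, nearly all Tubb3, with Snap25 near 0. Of 6 microglial markers 4 were in the table, summing to 5.71 to 6.05 and 4.81 to 5.31, nearly all Tmem119, with Itgam and Ptprc near 0. Endothelial markers summed to 5.61 to 6.24 and 6.13 to 6.2, nearly all Flt1, with Cldn5 at 0, and fibroblast and pericyte markers to 7.16 to 7.66 and 6.43 to 6.80, nearly all Pdgfrb. Of the miRNA rows that mark other cells, Mir1a-1 and Mir206 of muscle were listed at 0 in every library and Mir219a-1 of oligodendrocytes in 3, and Mir128-1 and Mir338 are given above. The part of these differences in the miRNA rows was not tested, and in bulk RNA fewer cells of a type and less RNA per cell cannot be told apart.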

How the data were processed

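RNA-seq libraries were made from rRNA-depleted total RNA with a directional kit, per the labels' protocols. Reads went through bcl2fastq and HISAT2 on GRCm38, per the submitters' processing notes. Versions, the counting program, the treatment of reads that map to several places and the strand setting were not given in the sources used here, so reads of a miRNA row, its host, an opposite-strand gene or a near-identical copy may be shared or split. The authors deposited 1 table of FPKM for 24169 genes, with biotypes and positions. Columns were matched by title, 2 libraries per group, numbered in accession order.

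Reads were recovered from FPKM times length: every miRNA value was whole within 0.05. The host of a miRNA row was the shortest longer row that contains it on the same strand. GENCODE mouse release 21 gave exons and GC content, and RefSeq gave mature sequences, with 158 members matched to a hairpin, 157 at the same coordinates. MBP was compared with control by limma 3.58.1 (R 4.3.3) on log2(FPKM + 1), with lmFit and eBayes and a trend of the spread on the mean, two-sided. The 12403 genes tested had at least 1 FPKM in 2 or more libraries. p-values were adjusted by Benjamini-Hochberg, threshold 0.05. This scale understates the change of low rows. Ratios of row to host were tested likewise over 478 pairs. The fit was tested on simulated data.

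The members, the gene lists and the tests were chosen with earlier results of these data known. Values are given for the 8 members with the highest FPKM, the 8 with the most reads, the 6 with the lowest p in each direction, clusters of at least 3 members, hosts of these, listed glial and brain miRNAs, and from the processing list the core genes and up to 4 more with the lowest p. Other rows named were chosen after their values were seen. Alternatives were the pseudocount, the filter, the scaling, the spread model, limma-voom and each library left out. A marker of the lists is not reported here.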

Additional observations from a re-analysis of the deposited data

How the results depend on the processing

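No member, no host ratio and no processing gene passed the adjusted threshold under any alternative run for it. The lowest adjusted p of a member ranged from 0.160 (filter of 5 FPKM) to 0.482 (without control 2). Over all genes, 3 passed with the spread following recovered reads and 16 with limma-voom, none of them members. Members at an unadjusted p under 0.05 numbered 16 of 69 with the filter of 5 FPKM, 17 with the read-based spread, 6 with limma-voom and 84 to 99 with a library left out. Beside these, 861 of 7582 genes had such a p with the filter of 5 FPKM. The share of all genes was 11.8% with the read-based spread and 11.4% with limma-voom, which tested 79 members. Fits with a library left out had 1 library in a group, so no conclusion is drawn from their counts. Members that passed the rule through 1 group only were not set apart in any of these counts. The median log2 fold change of members was -0.0215 to 0.10 with a library left out. With limma-voom it was 0.11, over the 79 members with at least 10 reads only, where the main fit gave 0.10. A minimum of 10 reads left 79 members and one of 5 FPKM 69. Of single genes, 18 of 396 values turned sign, 13 of them with a library left out. Ranges with a library left out were -0.32 to 0.13 for Mir5125, -0.20 to 0.0520 for Mir7-1, -0.18 to 0.40 for Mir1931, -0.83 to 0.34 for Mir221, -0.30 to 0.54 for Mir501 and -0.73 to 0.40 for Mir188. They were -0.0330 to 0.0306 for Dgcr8, -0.0658 to 0.0463 for Xpo5 and -0.0205 to 0.0484 for Ago1. Dgcr8 was 0.0194 with TPM scaling, 0.0028 with median-of-ratios scaling and 0.0096 with quantile normalization, and Xpo5 was 0.0121 and 0.0401 with TPM scaling and quantile normalization. The cause was not tested. Ratios of members to hosts at an unadjusted limma p under 0.05 numbered 8 with a pseudocount of 0.1 and 3 with at least 10 reads. The share over all pairs was not worked out for these settings. No paired analysis was possible because the replicate numbers are in accession order and pair nothing. Limits are 2 libraries per group, unstated replication, and a median of 5.12 reads per member, where a count of 5 has an exact Poisson 95% interval of 1.62 to 11.7.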
